A study of Arabidopsis thaliana with 3 samples.

Results

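The ERF, DREB, CBF, CRF and RAP2 genes of Arabidopsis thaliana are described here by where the AT-hook protein SOB3, as a GFP fusion, left ChIP-seq peaks on them. Members were the protein-coding genes whose symbol in the NCBI gene table of assembly TAIR10.1 begins with one of these 5 prefixes, followed directly by a number, a dot, a hyphen or 1 letter and a number. This gave 55 of the 27444 protein-coding genes on chromosomes 1 to 5. The table names 3 of them, ERF1-1, ERF1-2 and ERF1-3, as eukaryotic release factors of translation, so 52 members are AP2/ERF-type transcription factor genes by name. A gene was counted as holding a peak when a summit, the highest point of a peak, fell inside the gene or no more than 1000 bp from either of its edges. Holding a peak says that signal was called there and nothing about expression.

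AP2/ERF proteins are plant transcription factors that share a DNA-binding domain first described in APETALA2. The CBF and DREB branch binds the C-repeat or dehydration-responsive element of cold and drought genes, and the CBF genes are induced rapidly by cold and are known to be held down in long days through PIF4 and PIF7. The ERF branch binds the GCC box and acts downstream of ethylene and jasmonate, some members as activators and others as repressors that carry an EAR motif. The CRF genes were named for their link to cytokinin, and the group VII factors are stabilised when oxygen is low.

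All chromatin came from whole Col-0 plants with the genotype ProSOB3::SOB3-GFP sob3-4, in which the SOB3 promoter drives the fusion in a sob3-4 background. They were 14 days old and were harvested at ZT4, 4 h after lights-on, having grown under a long-day cycle (16 h of light, 8 h of dark) at 22 °C. An antibody to GFP was used for 2 ChIP libraries, and 1 input library had none. The input had no peak list used here, and no ChIP library of plants lacking SOB3-GFP was analysed here, so signal that does not need SOB3-GFP was not measured separately. Whether the pair of ChIP libraries had separate plants behind them is not given in the labels.

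The replicate 1 list held 9980 peaks and the replicate 2 list 4788, with median fold enrichments of 2.58 and 2.47. Fold enrichment is the authors' linear ratio of the ChIP signal at the summit to the control value there, and −log10 q is the strength of the call. The peak lists carry no read totals. Solving the peak caller's formulas for the summit signal gave whole numbers of fragments (within 0.02) for 100% of the peaks in each list. Where several solutions existed, the one nearest to a whole number was taken, which favours this outcome. A single solution existed for 1641 replicate 1 and 477 replicate 2 peaks. The signal per fragment was fitted on those to come closest to whole numbers, and 100% of them were whole. The fitted signal per fragment gave a depth 1.14 times higher in replicate 1, provided both lists were called against the same control. More than 1 whole solution existed for 8.52% of replicate 1 and 3.53% of replicate 2 peaks. The 95% exact Poisson intervals given with folds come from these fragments, hold the control value fixed and cover counting error only.

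Replicate 1 held peaks at 34 of the 55 members (61.8%) and replicate 2 at 14 (25.5%). Over all protein-coding genes the shares were 28.7% in replicate 1 and 13.7% in replicate 2. All 14 members of the replicate 2 list were also in the replicate 1 list, so 14 (25.5%) were held by both, against 11.7% of all genes. A further 20 members (36.4%) were held by replicate 1 alone, against 17.0% of all genes, 0 by replicate 2 alone, against 2.00%, and 21 (38.2%) by neither, against 69.3%. Of the members with a replicate 1 peak, 41.2% also had one in replicate 2, and of all genes with a replicate 1 peak 40.7% did. Each side of this comparison is 1 library and genes of 1 list share that library, so no test of the difference was possible.

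**Figure D1:**
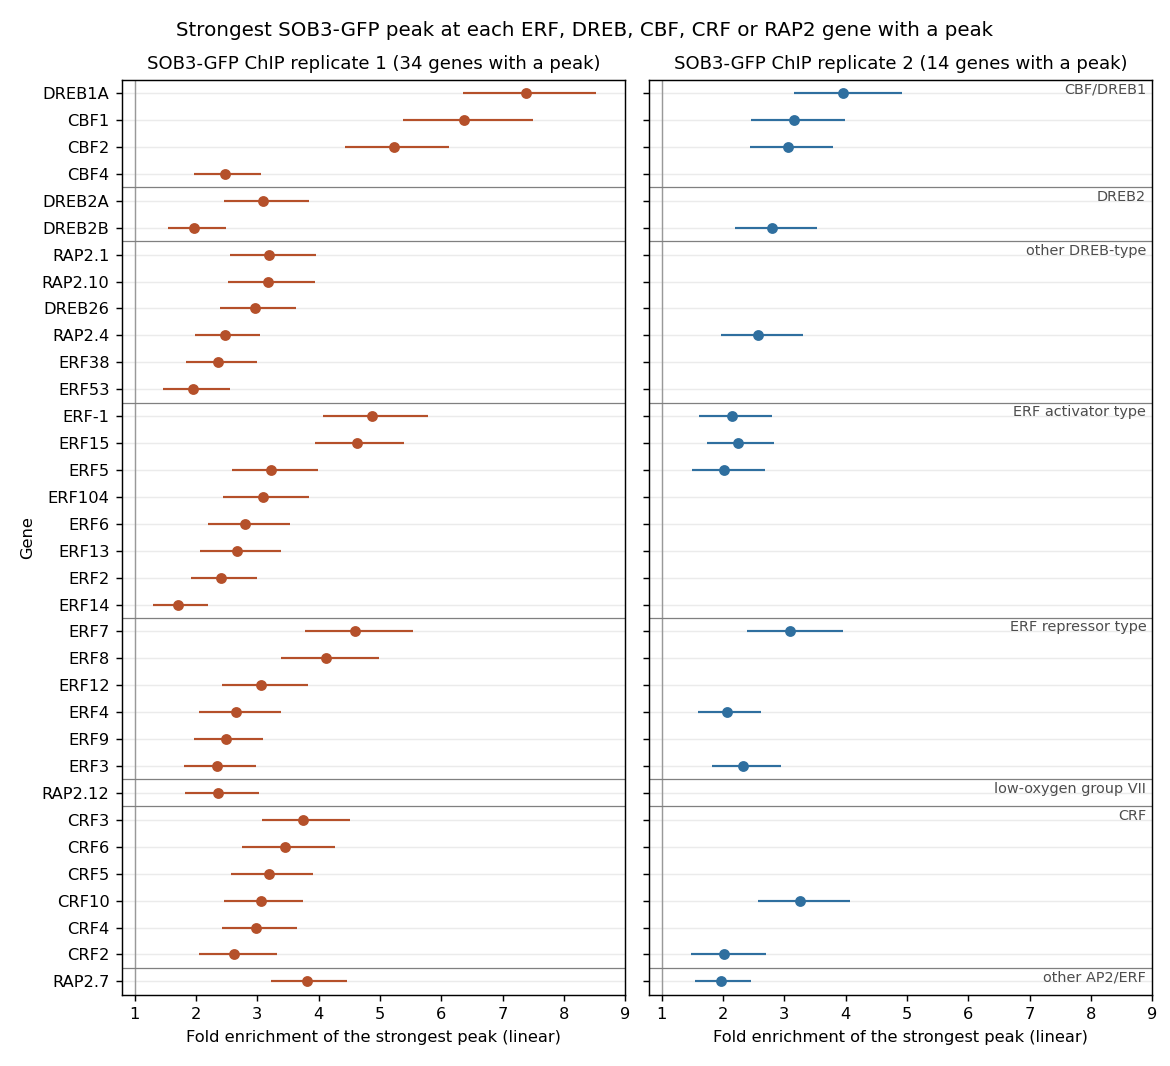
Fold enrichment (linear axis) of the strongest peak at each of the 34 genes with a peak, in replicate 1 on the left and replicate 2 on the right, grouped by role. Points are single libraries and bars 95% Poisson intervals for counting error. DREB1A was the highest in each panel, at 7.38 in replicate 1 and 3.96 in replicate 2, and 20 rows are empty on the right.

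The 3 members with the highest folds in replicate 1, and the highest member in replicate 2, were among the cold-induced CBF genes. In replicate 2, CRF10 (3.26) stood above CBF1 (3.16) and CBF2 (3.07), and ERF7 (3.10) above CBF2, all with overlapping intervals. CBF2 (AT4G25470), DREB1A (AT4G25480, also called CBF3) and CBF1 (AT4G25490) stand in a row within 7747 bp of chromosome 4, and each encodes an activator of the cold regulon. This stretch and its 1000 bp margins held 5 peaks in replicate 1 and 5 in replicate 2, and every one overlapped a peak of the other list. Their fold ran between 5.22 and 7.38 in replicate 1 and between 3.07 and 3.96 in replicate 2. Peaks covered 3762 bp in replicate 1 and 2218 bp in replicate 2.

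At DREB1A the peak on chromosome 4, 13019055 to 13019615 (TAIR10), had its summit inside the gene. Replicate 1 gave it a fold of 7.38 (interval 6.35 to 8.52, 183 fragments), and replicate 2 gave 3.52 (2.79 to 4.39, 76 fragments). The summits of the 2 lists were 3 bp apart. A second peak at its other edge, 13017655 to 13018374, reached 7.13 (6.11 to 8.28) in replicate 1 and 3.96 (3.15 to 4.92) in replicate 2, with summits 59 bp and 98 bp outside the span. DREB1A thus had a peak at each end of its gene. By fold its stronger peak ranked 8 of 9980 in the replicate 1 list and its other peak, the stronger one in replicate 2, ranked 103 of 4788 there.

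CBF1 was flanked as well, with both summits outside the span. On one side, at 13023285 to 13024105, the fold was 6.37 (5.38 to 7.49) in replicate 1 and 3.07 (2.35 to 3.95) in replicate 2. On the other, at 13020961 to 13021887, it was 5.38 (4.49 to 6.41) in replicate 1 and 3.16 (2.46 to 3.99) in replicate 2, the last with more than 1 whole solution. CBF2 had 1 peak, between its span and that of DREB1A, at 13016202 to 13016934. There replicate 1 had 5.22 (4.43 to 6.12) and replicate 2 had 3.07 (2.45 to 3.80).

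In all 5 regions of the cluster the replicate 1 interval lay wholly above the replicate 2 interval. The ratio of replicate 1 over replicate 2 fold was 1.70 to 2.09, and 11.4% of all 3941 overlapping peak pairs in the genome had a ratio of 1.70 or more. Control values at these summits differed little, with ratios of replicate 1 over replicate 2 between 0.928 and 1.02, while 124 to 183 fragments covered the summits in replicate 1 and 59 to 81 in replicate 2. The 3 genes are close copies of each other, and how reads that align to several copies were treated is not given in the sources used here, so the share of each copy is uncertain. CBF4 (AT5G51990), the drought-induced relative on chromosome 5, had a peak in replicate 1 alone, with a fold of 2.47 (1.97 to 3.06), and its nearest replicate 2 summit was 20800 bp away.

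**Figure D2:**
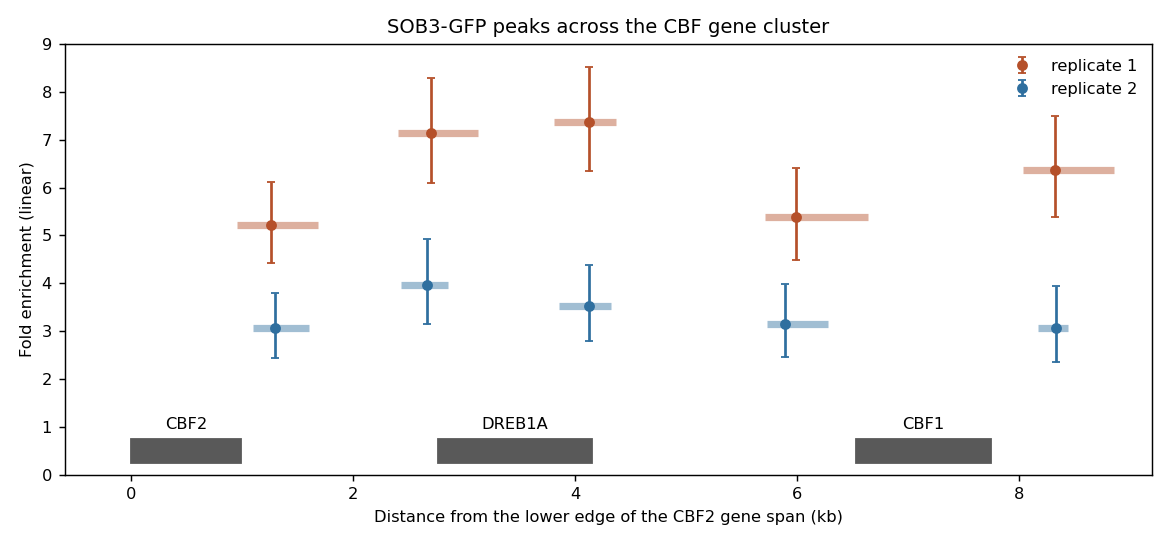
Fold enrichment (linear axis) of each peak against distance in kb from the lower edge of CBF2, with gene spans as grey boxes. Points are summits with 95% Poisson intervals, and pale bars show peak widths. Replicate 1 (5 peaks, 5.22 to 7.38) lies above replicate 2 (5 peaks, 3.07 to 3.96) at every position, and the summits of the lists lie 3 to 101 bp apart.

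The other DREB-type genes were held mostly by replicate 1. Of the DREB2 group, whose best-known member DREB2A (AT5G05410) drives drought and heat responses, 2 of 4 held a replicate 1 peak and 1 a replicate 2 peak. This small group stands beside shares of 28.7% in replicate 1 and 13.7% in replicate 2 over all protein-coding genes. DREB2A had a fold of 3.09 (2.46 to 3.84) in replicate 1 and no replicate 2 peak within 1000 bp. DREB2B (AT3G11020) went the other way, with 1.98 (1.55 to 2.49) in replicate 1 and 2.81 (2.198 to 3.53) in replicate 2, and these intervals overlap. Its summits in the 2 lists were 146 bp apart. DREB2C and DREB19 had no peak.

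Of 7 further DREB-type genes, 6 (85.7%) held a replicate 1 peak and 1 (14.3%) a replicate 2 peak. The shares of all protein-coding genes were 28.7% and 13.7% in that order. RAP2.4 (AT1G78080, also WIND1), which promotes dedifferentiation at wounds, was the one held by both, with strongest folds of 2.48 (1.99 to 3.04) in replicate 1 and 2.57 (1.97 to 3.30) in replicate 2. Those were different peaks, since the replicate 2 peak overlapped a weaker replicate 1 peak with a fold of 2.03. The summits of that overlapping pair were 691 bp apart. RAP2.1 (AT1G46768, 3.20), a repressor of cold and drought genes, RAP2.10 (AT4G36900, 3.17) and DREB26 (AT1G21910, 2.97) held replicate 1 peaks alone, as did ERF38 (2.36) and ERF53 (1.95). RAP2.9 had none.

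Among the ethylene response factors of the activator type, 8 of 9 (88.9%) held a peak in replicate 1 and 3 (33.3%) in replicate 2. All protein-coding genes stood at 28.7% and 13.7% in that order. ERF-1 (AT4G17500) carried peaks near both of its edges. The one at 9758999 to 9759399 on chromosome 4 reached 4.87 (4.06 to 5.78) in replicate 1 and 2.14 (1.61 to 2.80) in replicate 2, which is a ratio of 2.27, the highest of the 17 overlapping pairs at members. ERF15 (AT2G31230) had 4.62 (3.94 to 5.39) in replicate 1 and 2.24 (1.74 to 2.83) in replicate 2, with summits 15 bp apart. At these peaks of ERF-1 and ERF15 the replicate 1 interval lay wholly above that of replicate 2. Near the other edge of ERF-1 the intervals overlapped, at 2.47 (1.89 to 3.19) in replicate 1 and 1.88 (1.40 to 2.49) in replicate 2. The summits there were 279 bp apart. A further replicate 2 peak at ERF-1 had a fold of 2.08 and its summit 645 bp outside the gene. It overlapped no replicate 1 peak.

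ERF5 (AT5G47230), which with ERF6 restrains leaf growth under osmotic stress, had 3.23 (2.59 to 3.98) in replicate 1 and 2.02 (1.49 to 2.69) in replicate 2. A neighbouring gene lay nearer to the summits of these peaks than ERF5 did. Another replicate 1 peak, with its summit inside ERF5 and a fold of 3.19, overlapped no replicate 2 peak. ERF6 (2.81), ERF104 (3.09), ERF13 (2.67), ERF2 (2.41) and ERF14 (1.71) held replicate 1 peaks alone. At ERF2 this depended on the window. Its replicate 1 summit was 883 bp from the gene, and the overlapping replicate 2 peak, with a fold of 1.91, had its summit at 1013 bp, just outside. ERF1 (AT3G23240), which integrates ethylene and jasmonate signals, was the member of this group without a peak, with its nearest summits 2091 bp away in replicate 1 and 2034 bp in replicate 2.

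Of 8 ERF genes of the repressor type, 6 (75.0%) held a replicate 1 peak and 3 (37.5%) a replicate 2 peak. The shares over all protein-coding genes were 28.7% and 13.7% in that order. ERF7 (AT3G20310), a repressor in abscisic acid responses, had 4.59 (3.78 to 5.53) in replicate 1 at 7086671 to 7087509 on chromosome 3, and that one peak overlapped 2 replicate 2 peaks with folds of 3.10 and 2.26. The first of these has more than 1 whole solution, and a neighbouring gene lay within reach of all 3 summits. ERF4 (AT3G15210), which restrains jasmonate and ethylene responses, had 2.38 in replicate 1 and 2.06 in replicate 2 at 1 edge, and at the other a peak of 2.65 in replicate 1 alone.

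ERF3 (AT1G50640) was counted for both lists through separate peaks. Its replicate 1 summit (fold 2.34) lay inside the gene and its replicate 2 summit (2.33) lay 806 bp outside, with no overlap. Members whose peaks of the 2 lists overlapped by at least 1 bp thus numbered 13 rather than 14, against 11.3% of all protein-coding genes. ERF8 (AT1G53170) had the highest fold of the members held by replicate 1 alone, 4.13 (3.39 to 4.98, 107 fragments), while its nearest replicate 2 summit was 12775 bp away. ERF12 (3.06) and ERF9 (2.49) were also held by replicate 1 alone, and ERF10 and ERF11 by neither.

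The cytokinin response factors had 6 of 12 genes held in replicate 1 and 2 (16.7%) in replicate 2. Beside them, the shares of all protein-coding genes were 28.7% in replicate 1 and 13.7% in replicate 2. CRF10 (AT1G68550) was the factor held by both lists with nearly equal folds. It had 3.05 (2.46 to 3.75) in replicate 1 and 3.26 (2.57 to 4.07) in replicate 2. These CRF10 peaks overlapped, but their summits were 324 bp apart. CRF2 (AT4G23750), a target of the auxin response factor MONOPTEROS, had 2.62 (2.04 to 3.32) in replicate 1 and 2.02 (1.48 to 2.69) in replicate 2. The summits of these CRF2 peaks were 257 bp apart. CRF3 (AT5G53290, 3.75), CRF6 (AT3G61630, 3.45), CRF5 (AT2G46310, 3.18) and CRF4 (AT4G27950, 2.99) held replicate 1 peaks alone, and the nearest replicate 2 summit to CRF3 was 51195 bp away. The CRF6 summit, 471 bp from that gene, lay nearer to another gene. The members with peaks were CRF2 to CRF6 and CRF10, and CRF1, CRF7, CRF8, CRF9, CRF11 and CRF12 had none.

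Among the remaining members, 1 group VII gene (25.0% of 4) held a replicate 1 peak and 0 a replicate 2 peak. The 4 other AP2/ERF genes had 1 (25.0%) in each list. All protein-coding genes stood at 28.7% in replicate 1 and 13.7% in replicate 2. Of the 4 group VII genes, RAP2.12 (AT1G53910) had a replicate 1 peak of 2.36 (1.82 to 3.03), nearer to another gene, while RAP2.2, ERF71 and ERF73 had none in either list. RAP2.7 (AT2G28550, also TOE1), an APETALA2-like repressor of flowering, had a peak inside the gene, at 3.81 (3.23 to 4.46) in replicate 1 and 1.96 (1.55 to 2.46) in replicate 2. The intervals do not overlap. Another replicate 1 peak with its summit inside RAP2.7, with a fold of 3.18, overlapped no replicate 2 peak. RAP2.6, RAP2.11 and ERF110 had no peak, and neither did the 3 release factor genes. Rap2.6L (AT5G13330), left out by the upper case of the rule, had 2.79 in replicate 1 and no replicate 2 peak.

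Peaks at members of all groups were compared between the lists. Of 46 replicate 1 peaks at members, 17 overlapped a replicate 2 peak, and of 19 replicate 2 peaks 17 overlapped a replicate 1 peak. Beside this, the whole lists of 9980 and 4788 peaks formed 3941 overlapping pairs, in which a peak can enter more than once. These are pairs and not peaks, so they give no matching share for the counts at members. Whether overlap at members differs from that of the whole lists was not tested. In the 17 overlapping pairs at members, the median ratio of replicate 1 over replicate 2 fold was 1.70, against 1.12 over all 3941 overlapping pairs. The replicate 1 interval lay wholly above in 9 of the 17 pairs (52.9%), against 17.2% of all pairs, and in 0 pairs was replicate 2 above. Of these 9 pairs, 5 belong to the CBF cluster. Without them the median ratio was 1.40 over 12 pairs, with 4 wholly above (33.3%). The single ERF7 replicate 1 peak forms a pair with each of the 2 replicate 2 peaks it overlaps. Its nearer pair, with summits 18 bp apart, had overlapping intervals. The other, with summits 428 bp apart, is among those wholly above, here and in the 9.

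Since the lists differ in length, that of replicate 1 was also shortened to its strongest 4788 peaks, the length of the replicate 2 list. It then held 22 members (40.0%), against 14 (25.5%) in replicate 2. All protein-coding genes were close to even, with 14.9% in the shortened replicate 1 list and 13.7% in replicate 2. At this length 10 members were held by both, against 8.40% of all protein-coding genes, 12 (21.8%) by replicate 1 alone, against 6.51%, and 4 (7.27%) by replicate 2 alone, against 5.31%.

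Other transcription factor families taken by symbol gave smaller shares. With whole lists, 28 of 67 WRKY genes (41.8%) held a replicate 1 peak and 11 (16.4%) a replicate 2 peak. For NAC genes the counts were 29 and 14 of 79, and for MYB genes 39 and 17 of 120. With equal lengths, replicate 1 held 13 WRKY, 16 NAC and 26 MYB genes, and replicate 2 held 11 WRKY, 14 NAC and 17 MYB genes. The ratio of replicate 1 over replicate 2 counts was then 1.53 for MYB genes, close to the 1.57 of the members. It was 1.18 for WRKY and 1.14 for NAC genes. With whole lists this ratio was 2.55 for WRKY, 2.43 for members, 2.29 for MYB and 2.07 for NAC genes. Whether the families differ was not tested.

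**Figure D3:**
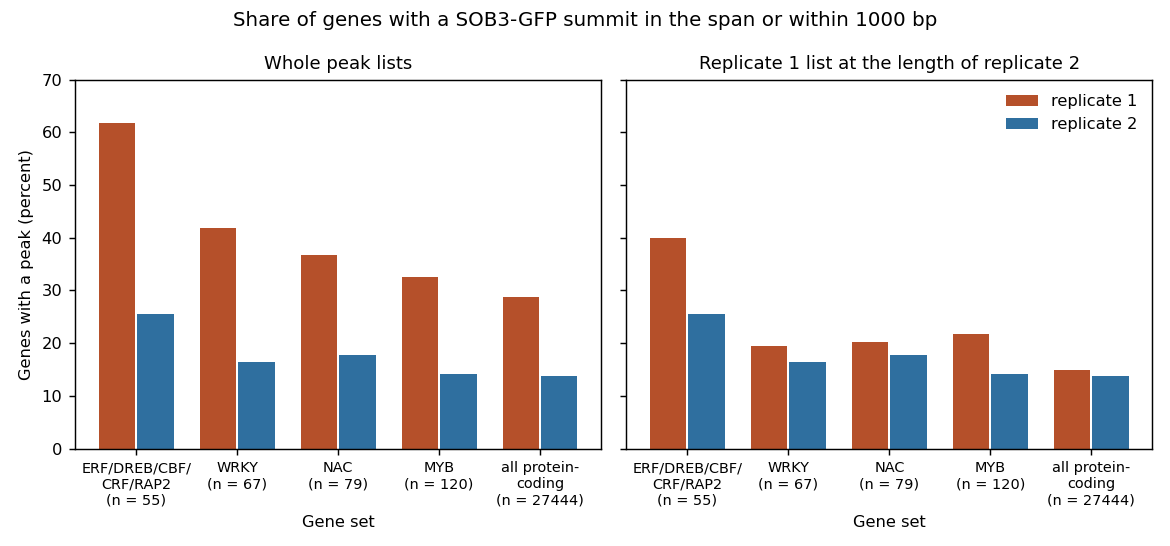
Percent of genes with a summit in the span or within 1000 bp, in replicate 1 and replicate 2, for the 55 members, 67 WRKY, 79 NAC, 120 MYB and all 27444 protein-coding genes. The left panel uses whole lists and the right panel the strongest 4788 peaks of replicate 1. The members stand at 61.8% and 25.5% on the left and at 40.0% and 25.5% on the right.

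Members held by replicate 1 alone had higher folds there, at the median, than all genes so held. Their highest replicate 1 fold had a median of 2.98 (range 1.71 to 4.13, n = 20), against 2.48 for the 4675 genes of the genome held by replicate 1 alone. Sorted by the highest −log10 q in replicate 1, members with 15 or more were held by replicate 2 in 7 of 9 cases (77.8%), close to the 75.6% of all genes of that strength. Between 10 and 15, 2 of 11 members (18.2%) were, against 49.9% of 1396 genes. The 2 were CRF10 and ERF5, and the 9 others were DREB26, DREB2A, RAP2.1, RAP2.10, ERF12, ERF104, CRF4, CRF5 and CRF6. From 5 to 10 the shares were 36.4% of 11 members and 34.6% of 3062 genes, and under 5 they were 33.3% of 3 members and 18.3% of 1983 genes. Over all strengths together the shares were nearly equal, at 41.2% of members and 40.7% of genes. For 19 of the 20 members held by replicate 1 alone, the nearest replicate 2 summit lay more than 2000 bp away, and ERF2 is the exception. A gene without a called replicate 2 peak can still have had signal below the caller's limit, which the peak lists do not show.

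**Figure D4:**
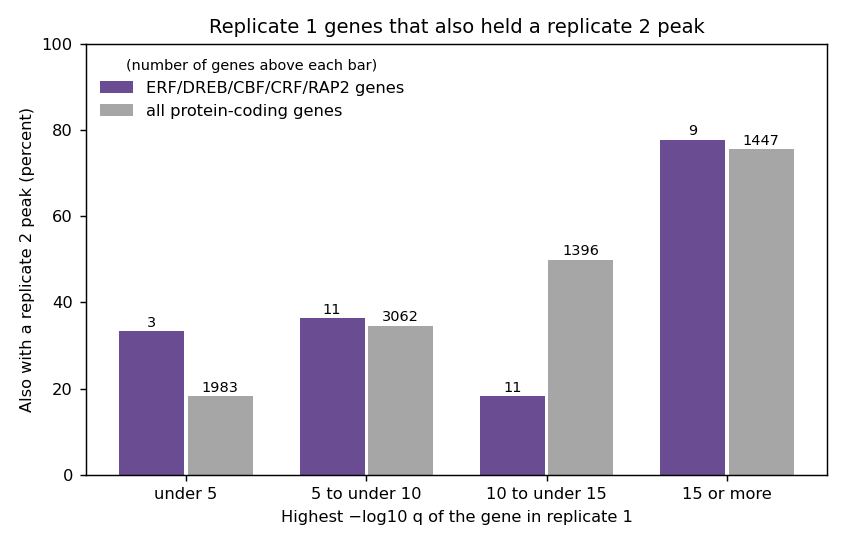
Percent of replicate 1 genes that also held a replicate 2 peak, by the gene's highest −log10 q in replicate 1, for members and for all protein-coding genes. Numbers above bars are genes. Members stand above all genes under 5 (33.3% of 3 members, 18.3%), below them between 10 and 15 (18.2% and 49.9%) and close to them at 15 or more (77.8% and 75.6%).

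At the median, members were shorter than all genes and stood farther from their neighbours. They had a median span of 1338 bp, against 2078 bp for all protein-coding genes, and a median summed gap to both protein-coding neighbours of 4395 bp, against 1857 bp. Members with a replicate 1 peak had a median summed gap of 5594 bp, and members without one had 1769 bp, while over all genes these medians were 2382 bp and 1630 bp. The part of gene spacing in the members' counts was not tested.

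Most summits at members lay beside the gene and close to it. In replicate 1, 30 of 46 were outside the span, at a median of 239 bp from its edge, and 16 (34.8%) were inside, against 23.8% of all gene-summit pairs. In replicate 2, 15 of 19 were outside, at a median of 278 bp, and 4 (21.1%) were inside, against 19.9%. The member was the nearest protein-coding gene for 42 of 46 replicate 1 and 17 of 19 replicate 2 summits, and no summit counted for more than 1 member. Matching distances and nearest-gene counts over all genes are not given here, so these values are not shown to be particular to members. The gene table gives no strand, so start and end of a gene could not be told apart. At the limit of the window, the farthest counted summits were those of ERF104 (896 bp), ERF2 (883 bp) and RAP2.4 (857 bp) in replicate 1, and the nearest uncounted ones those of ERF2 in replicate 2 (1013 bp) and ERF11 in replicate 1 (1095 bp).

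Genes upstream and downstream of these factors were listed by locus. The counts of each list below stand beside 28.7% of all protein-coding genes in replicate 1 and 13.7% in replicate 2. Of 13 ethylene signalling genes, 10 (76.9%) held a replicate 1 peak and 5 (38.5%) a replicate 2 peak, all 5 in both. The receptors ERS2 (AT1G04310, 2.58 in replicate 1 and 2.59 in replicate 2) and ERS1 (AT2G40940, 4.94 and 2.50 in that order) and the F-box gene EBF1 (AT2G25490, 3.77 and 2.39), which targets EIN3 for degradation, led those held by both. EIL1 (4.01 in replicate 1 and 2.30 in replicate 2), an EIN3-like transcription factor, and the receptor EIN4 (2.14 in replicate 1 and 2.86 in replicate 2) were the others. EIN3 (3.52), CTR1 (3.38), EBF2 (2.39), ETR2 (2.39) and EIN2 (2.04) held replicate 1 peaks alone, and ETR1, RTE1 and RAN1 none.

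Of 16 cold regulators and CBF targets, 9 (56.2%) held a replicate 1 peak and 1 (6.25%) a replicate 2 peak. That one was MYB15 (AT3G23250), which encodes a repressor of CBF genes, at 5.81 in replicate 1 and 4.80 in replicate 2. In replicate 1 alone, RHL41 (ZAT12) had 4.60, ICE1 (AT3G26744), an activator of CBF expression, 2.94, OST1 2.44 and SCRM2 (ICE2) 2.36. Of the cold-responsive genes known as CBF targets, KIN1 and KIN2 (sharing 1 peak of 3.48), GolS3 (2.16) and COR47 (1.71) also held replicate 1 peaks alone, and COR15A, COR15B, LTI78 (RD29A) and LTI65 (RD29B) had no peak in either list. STZ (ZAT10), SR1 (CAMTA3) and HOS1 had none either.

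Of 7 low-oxygen genes, 3 held a replicate 1 peak and 2 a replicate 2 peak, with LBD41 (AT3G02550, 2.98 in replicate 1 and 2.36 in replicate 2) in both. PCO2 (AT5G39890, 2.703) and PRT6 (2.41) held replicate 1 peaks alone and HB1 (2.36) a replicate 2 peak alone, and ADH1, PDC1 and PCO1 had none. A list of 18 AP2/ERF-domain genes outside the symbol rule had similar counts in both lists. There, 7 (38.9%) held a replicate 1 peak and 8 (44.4%) a replicate 2 peak, and 6 held both, led by ORA59 (AT1G06160, 3.69 and 3.78), a jasmonate and ethylene response factor, CEJ1 (AT3G50260, 3.65 and 3.21) and SHN1 (AT1G15360, 3.22 and 2.83), a regulator of wax synthesis, each with the replicate 1 fold first. In the same order, ABI4 (2.97 and 2.51), TINY2 (4.92 and 2.66) and ORA47 (5.10 and 2.31) were the other genes held by both, and ABR1 had 2.17 in replicate 1 alone. TINY (AT5G25810, 2.54) and SHN3 (AT5G25390, 1.93) held replicate 2 peaks alone. The remaining 9 genes, DDF1, DDF2, DRN, DRNL, HRD, RRTF1, SHN2, LEP and PUCHI, had none.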

How the data were processed

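SOB3-GFP ChIP-seq peaks of 2 replicates were used. The submitters' processing notes name bcl2fastq, Bowtie 0.12.9, the TAIR10 build and MACS2, the peak caller. Its version, control and threshold were not given in the sources used here. Peaks are numbered separately per replicate. The authors deposited a fold enrichment (linear ratio), −log10 p and −log10 q values and a score, which in 100% of peaks was the whole part of 10 times −log10 q. Genes were the 27444 protein-coding genes on chromosomes 1 to 5 of an NCBI RefSeq table (TAIR10.1), whose nuclear coordinates are taken to equal TAIR10. Summits were assigned to genes within 1000 bp, and lists were compared with an overlap of at least 1 bp, in Python 3.11.15 with numpy 2.4.6, scipy 1.17.1 and pandas 2.3.3. Assignment and recovery of summit signal were tested on simulated data. That recovery was given the true signal per fragment, so it did not check the fitted value or the depth ratio. No test was run: 1 group of 2 libraries was analysed, and counts are set beside those of all protein-coding genes. Role groups follow textbook classification. Members and lists were chosen with earlier results of these data known. HRE1 and HRE2 of the list of other AP2/ERF genes are members (ERF73 and ERF71) and were counted with the members only. Fuller description was planned for members held by both replicates and the 10 strongest of replicate 1 alone. Per other list it was planned for up to 3 genes held by both with the highest lower fold. The −log10 q of single members is not given here, and some of these genes are given by fold alone. Others are named more briefly. Alternatives varied the window, the overlap, the threshold and the list length. No sequence or strand was used.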

Additional observations from a re-analysis of the deposited data

How the results depend on the processing

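With summits within 500 or 2000 bp, any overlap of a peak, the nearest gene only, AP2/ERF-type members only, symbols in any case, or without the 3 clustered CBF genes, every count at the members stayed within 1.5 times its value (34 genes in replicate 1, 14 in replicate 2, 14 in both, 20 in replicate 1 alone); the nearest gene, letter case and CBF alternatives were chosen after seeing the data. With summits inside the gene span the counts were 14, 4, 4 and 10 in that order, against 7.50%, 2.80%, 2.117% and 5.39% of all genes. With −log10 q of at least 5, replicate 1 held 31 members (21.5% of all genes), replicate 2 held 8 (8.49%) and both held 7 (7.10%). Members in replicate 1 alone rose from 20 to 24 (14.4% of all genes). With at least 10, replicate 1 held 20 (10.4% of all genes), replicate 2 held 4 (2.39%) and both 4 (1.86%). Those 4 were the 3 clustered CBF genes and CRF10. With the strongest 1000 peaks of each list the counts were 8, 4, 3 and 5, against 3.12%, 2.96%, 0.998% and 2.124% of all genes. With the replicate 1 list shortened, 22 members were in replicate 1 and 12 in replicate 1 alone. A reciprocal overlap of 50% left 8 members in both (14.5%, against 9.52% of all genes). Without replicate 1 the count was 14 and without replicate 2 it was 34. Stricter limits leave fewer peaks by construction. The cause of these differences was not tested. The highest fold per gene and replicate kept its value in 41 of 42 cases at 500 bp and 37 of 48 at 2000 bp. The window limited to the upstream side was not run, for lack of strand. No paired analysis was possible because 1 group of 2 ChIP libraries was analysed. Peak lists show no signal below the caller's limit, so absence of a peak is not absence of binding.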
